A study of Mus musculus with 6 samples.

Results

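The Notch pathway genes described here are 9 of the 21938 protein-coding mouse genes of the GENCODE M21 annotation. They are the ligand genes Dll4, Jag1 and Jag2, the receptor genes Notch1 and Notch2, the gene of the nuclear effector Rbpj, and the target and feedback genes Hes1, Heyl and Nrarp. The genes were listed by name, and every peak of 6 ATAC-seq libraries that overlapped a gene body or the 10 kb to each side of it in the mm10 genome was taken, whatever its strength.

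Notch signalling passes between touching cells: a Delta-like or Jagged ligand on one cell binds a Notch receptor on its neighbour, which is then cut so that its intracellular domain is released. That domain enters the nucleus, binds the DNA-binding protein RBPJ and turns on targets such as the Hes and Hey repressors and Nrarp, which dampens the signal. In the heart the pathway is known for its part in the endocardium, the formation of trabeculae and valves, the coronary vessels and the smooth muscle of arteries.

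Open chromatin was measured by Omni-ATAC-seq in nuclei of whole mouse hearts at postnatal day 1 (P1), with 50000 nuclei per library and 2 biological replicates in each of 3 groups. In every group the nuclei were first purified through a 2.2 M sucrose cushion, a density step used in the study to enrich cardiomyocyte nuclei, and no treatment is given for any animal. The Input group held the nuclei of wild-type C57BL/6J hearts that passed this cushion, with no pull-down after it. The PCM1 group, also labelled wild type, held nuclei pulled down with an antibody to PCM1, a protein at the nuclear envelope of cardiomyocytes, by magnet-assisted nuclear immunoprecipitation (MAN-IP). The Myc group held nuclei pulled down in the same way through a Myc tag on the nuclear membrane protein Sun1, from mice with a B6;129 tag allele at ROSA26 switched on by a heterozygous Nkx2-5 Cre allele. Because this Cre acts early in heart development, the tag can also be carried by descendants other than cardiomyocytes, such as smooth muscle, endocardium and endothelium, and the tagged nuclei need not be of 1 cell type. The question for the Notch genes was which of their regions were accessible in the cushion-purified nuclei, in those of the Nkx2-5 lineage and in those bound by the PCM1 antibody.

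The libraries differed in depth. The lists held 131500 and 75336 peaks for Input, 107216 and 108513 for Myc, and 83139 and 81487 for PCM1, here and throughout with replicate 1 before replicate 2. The genome background of fragments, solved from the deposited peak scores, was 3.96 and 1.02 for Input, 1.44 and 1.44 for Myc and 0.976 and 0.904 for PCM1, so Input replicate 1 was 4.38 times as deep as the shallowest library. Because the libraries differed in depth and in number of peaks, each peak was described by its rank within its own library, as a percentile of the authors' −log10 q value from 100 for the strongest peak down, with 0 where the library had no peak. Such a percentile still depends on the length of the list. One check went against a label. The Sun1 gene, whose coding exons carry extra peaks when a Sun1 transgene is present, had 0 and 0 coding-exon summits for Input, 4 and 4 for Myc, and 3 and 7 for PCM1. Among these Sun1 summits, the highest ranked at the 56.96th and 55.5th percentile in Myc and at the 86.5th and 79.1st in PCM1, although PCM1 was labelled wild type like Input. Counts that compare Input with Myc alone, given further on, do not use the PCM1 libraries.

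Overlapping peaks of the 6 libraries were merged into regions. The 9 gene windows, 656.4 kb together, held 117 regions, or 1.78 per 10 kb against 0.927 per 10 kb over the windows of all protein-coding genes. Notch2 had 30 regions, Rbpj 25, Notch1 19, Jag1 9, Jag2 8, Heyl 8, Dll4 7, Hes1 6 and Nrarp 5. Most lay in introns (71), with 19 upstream, 15 downstream, 5 in coding exons, 5 in untranslated exons and 2 in noncoding exons. A peak in all 6 libraries was present at 45 of the 117 regions (38.5%), against 31.4% of the 119327 regions near protein-coding genes. Heyl was the gene where each region was shared: all 8 of its regions had a peak in every library. At the other end, 27 regions (23.1%, against 29.4% near all protein-coding genes) were seen in 1 library each, 11 of them in Input replicate 1. These regions were weak where they occurred, with a median percentile of 11.6 and a highest value of 43.9. In bulk nuclei, a weaker peak in fewer nuclei with the site accessible and a weaker peak from less accessible chromatin in each nucleus cannot be told apart.

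The promoters of these genes were accessible in nearly every library. A peak within 1 kb of the gene start was present in all 6 libraries for 8 of the 9 genes, against 56.1% of the 21938 protein-coding genes. Rbpj was the exception, for a reason of annotation described with that gene. The median promoter percentile over the 9 Notch genes was 88.4 and 84.0 for Input, 87.3 and 89.4 for Myc and 81.7 and 79.7 for PCM1. Over all protein-coding genes, those without a peak counted as 0, it was 77.8 and 57.8, 74.8 and 74.0, and 57.4 and 55.9 in the same order. The Notch genes thus sat above the median gene in each library, and lowest in the PCM1 libraries. Among genes with a promoter peak the median was higher than for the Notch genes, at 92.0 and 87.5, 92.5 and 92.5, and 87.0 and 86.6.

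Among the 9 promoters, the order of levels ran from Notch2 to Rbpj. Mean percentiles over the 6 libraries were 94.3 ± 2.62 (SD, n = 6) for Notch2, 93.6 ± 2.55 for Hes1, 92.2 ± 2.41 for Nrarp, 86.9 ± 2.43 for Notch1 and 86.7 ± 5.46 for Jag1. Lower came Dll4 at 74.6 ± 9.78, Heyl at 69.2 ± 19.1, Jag2 at 64.3 ± 10.3 and Rbpj at 8.31 ± 13.6. Each of the 36 pairs of genes was compared over the libraries by a two-sided exact permutation test that flips the sign of each library's difference, with Benjamini-Hochberg adjustment over the 36 pairs. In 29 pairs the adjusted p was under 0.05, and each of these had the smallest p that 6 libraries can give (0.0312). Every pair with Rbpj was among the 29, and these pairs rest on the start of its gene record, described with that gene. All of these p-values treat the 6 libraries alike and as independent, and do not compare the groups. According to the paper, part of the cushion-purified nuclei served as input and the rest went to the pull-downs, so libraries could share a preparation. The labels do not say which libraries did. With 5 or fewer independent preparations no pair could reach p under 0.05, and none of the 29 pairs would pass. Between neighbours in the order, Nrarp lay above Notch1 by 5.31 ± 2.07 points in 6 of 6 libraries (exact permutation test, n = 6, p = 0.0312, adjusted p = 0.0388). Jag1 lay above Dll4 by 12.05 ± 5.71 points and Jag2 above Rbpj by 56.0 ± 13.6 points, each in 6 of 6 libraries and with the same exact p and adjusted p. The other neighbours, Notch2 with Hes1, Hes1 with Nrarp, Notch1 with Jag1, Dll4 with Heyl and Heyl with Jag2, did not differ beyond their spread (exact permutation tests, adjusted p from 0.246 to 0.906).

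All 3 of these steps depended on how a promoter was measured. When peaks were ranked by fold enrichment in place of q value, Nrarp lay below Notch1 (a difference of −6.96 ± 3.79 points) and Jag1 below Dll4 (−3.16 ± 9.22). Hes1 also lost its second place, with a mean of 58.95 ± 9.27 (SD, n = 6) by fold enrichment, behind Notch2 (92.1), Notch1 (86.5), Nrarp (79.5), Dll4 (64.1) and Jag1 (60.98). When any annotated transcript start was taken as a promoter, Jag2 lay below Rbpj (−29.9 ± 7.31). Rbpj then moved from last to first place, with a mean of 96.7 against 94.3 for Notch2.

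**Figure D1:**
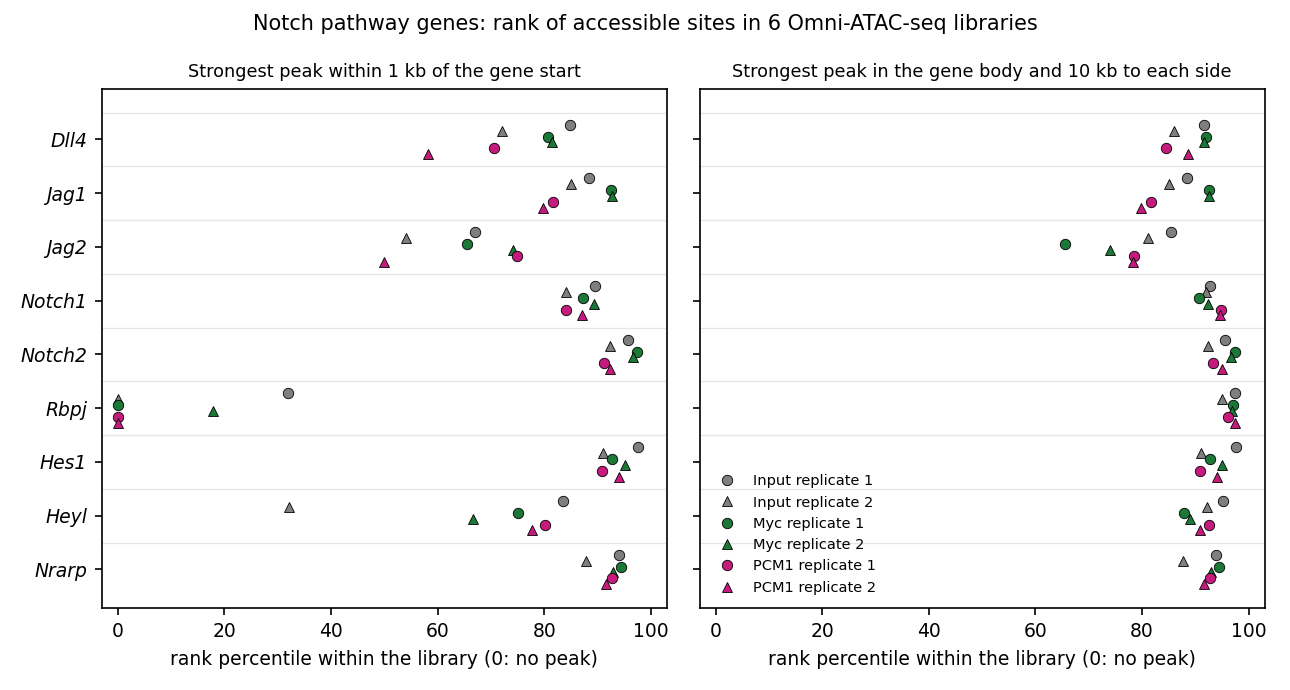
Rank percentile within each library (horizontal axes, 0 to 100, with 0 for no peak) of the strongest peak of each Notch pathway gene (vertical axis), within 1 kb of the gene start on the left and in the gene body with 10 kb to each side on the right, with colours for groups and circles and triangles for replicates 1 and 2. On the left, Notch2, Hes1 and Nrarp lie above 87 in each library, Heyl has 1 low point at 32.1 in Input replicate 2 and Rbpj has a peak in 2 libraries, while on the right Rbpj lies above 95 in all 6.

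Among the ligand genes, Dll4 encodes the Delta-like ligand of endothelial cells. The Dll4 promoter region (chr2:119325501-119325991) ranked at 84.8 and 72.1 for Input, 80.6 and 81.5 for Myc and 70.5 and 58.2 for PCM1. Both PCM1 libraries were below the other 4, by a narrow margin to Input replicate 2, and ranking by fold enrichment ended this separation. A Dll4 intron region 1.49 kb from the start (chr2:119327111-119327508), described because its ranks did not overlap and so chosen after its values were seen, ranked at 62.4 and 49.2 for Input, 49.9 and 63.4 for Myc and 0 and 18.6 for PCM1. Here too the PCM1 libraries were lowest, and they were lowest under each alternative run. Away from the promoter, the strongest Dll4 region lay downstream of the gene, 12.35 kb from the start (chr2:119337375-119338345), at 91.6 and 86.0 for Input, 91.9 and 91.6 for Myc and 84.5 and 88.7 for PCM1. This Dll4 region outranked the promoter in every library, and the Myc libraries were the highest by a margin under 1 point, which was lost when ranked by fold enrichment.

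Jag1 encodes a Jagged ligand that is needed in the outflow tract and in arterial smooth muscle. The Jag1 promoter region (chr2:137116628-137117751) ranked at 88.4 and 85.0 for Input, 92.6 and 92.6 for Myc and 81.7 and 79.7 for PCM1. The 3 groups did not overlap, with Myc highest and PCM1 lowest, but the low position of PCM1 was lost with equally long peak lists and with ranks by fold enrichment, while the high position of Myc was kept. Each position is common, at 10.7% (Myc above the rest) and 10.4% (PCM1 below) of all regions near protein-coding genes. A Jag1 intron region 8.51 kb from the start (chr2:137107935-137108260) ranked at 20.5 and 0 for Input, 59.1 and 59.6 for Myc and 0 and 0 for PCM1. Both Myc libraries were high, Input had a weak peak in the deep library alone, and PCM1 had none. Another Jag1 intron region, 24.5 kb from the start (chr2:137091925-137092700) and chosen after its values were seen, ranked at 35.2 and 36.4 for Input, 47.7 and 52.3 for Myc and 10.7 and 0 for PCM1. Its order of Myc, Input and PCM1 matched that of the promoter and was lost with an equal number of peaks and where a peak had to cover 50% of the merged region. The Jag1 region with the highest floor away from the promoter lay in an intron 1.79 kb from the start (chr2:137114178-137115119), at 80.5 and 56.5 for Input, 67.7 and 59.1 for Myc and 67.5 and 41.1 for PCM1, where the groups overlapped. Downstream of Jag1, a weak region (chr2:137080592-137080821) had a peak in Input alone, at 15.2 and 14.5, and was the single region of the 9 genes with that pattern, which was lost with an equal number of peaks.

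Jag2 encodes the second Jagged ligand. The Jag2 promoter held 2 regions, and the strongest peak of either ranked at 67.1 and 54.0 for Input, 65.6 and 74.1 for Myc and 75.0 and 49.9 for PCM1, with the groups overlapping. It lay in the upstream region (chr12:112929488-112930414) except in Input replicate 2, where that region ranked at 35.8 and the peak of 54.0 lay in the other (chr12:112928398-112929355). A Jag2 intron region 8.06 kb from the start (chr12:112921526-112921920), chosen after its values were seen, ranked at 82.7 and 81.2 for Input, 33.9 and 30.4 for Myc and 49.8 and 61.7 for PCM1. Unlike at the Jag1 promoter, Input was above and Myc below all other libraries, under each alternative run, and in both Input libraries the region outranked the Jag2 promoter. The most evenly strong Jag2 region lay downstream (chr12:112897467-112898330) and ranked at 85.4 and 79.6 for Input, 65.4 and 70.5 for Myc and 78.6 and 78.4 for PCM1. Myc was again lowest. The high position of Input at this downstream region was lost with an equal number of peaks. The coding gene start nearest to this region was that of Gpr132, not Jag2. Another Jag2 pattern appeared in an intron 15.01 kb from the start (chr12:112914558-112914891), at 23.8 and 0 for Input, 49.5 and 41.2 for Myc and 0 and 0 for PCM1. As at the Jag1 intron region, both Myc libraries had the peak and neither PCM1 library did.

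Of the receptor genes, Notch1 encodes the main receptor of endocardium and endothelium. Notch1 has 2 annotated coding starts, and both were accessible. The region at the upstream start (chr2:26516096-26516763) ranked at 89.6 and 84.0 for Input, 87.3 and 89.4 for Myc and 84.1 and 87.0 for PCM1. Around the start of the Notch1-201 transcript, 12.8 kb further into the gene (chr2:26503362-26504452), ranks were 91.4 and 83.0 for Input, 81.9 and 83.1 for Myc and 83.1 and 80.8 for PCM1. Groups overlapped at both Notch1 starts. The strongest Notch1 region was not at a start but in an intron 41.4 kb into the gene (chr2:26474858-26475660), at 92.7 and 92.1 for Input, 90.6 and 92.4 for Myc and 94.8 and 94.5 for PCM1. The PCM1 libraries were highest there, a separation lost when ranked by fold enrichment. By gene records, the coding gene start nearest to this region was that of Sec16a, while the Notch1-201 start lay 28583 bp away. A second Notch1 intron region, 23.0 kb into the gene (chr2:26493292-26493843) and chosen after its values were seen, ranked at 35.4 and 30.7 for Input, 34.4 and 28.7 for Myc and 61.0 and 47.7 for PCM1. PCM1 was again above the other 4 libraries, except where a peak had to cover 50% of the merged region to count.

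A pair of weaker Notch1 intron regions had a peak in both Input libraries and in neither PCM1 library. The first (chr2:26487274-26487576) ranked at 32.5 and 0.887 in Input and at 22.6 and 26.3 in Myc, and was the 1 region of the 9 genes present in both groups and absent from PCM1. The second (chr2:26513129-26513407) ranked at 25.6 and 26.2 in Input and at 0 and 22.9 in Myc. Neither Notch1 region kept its pattern with an equal number of peaks per library.

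Notch2, the receptor whose loss affects smooth muscle around the great arteries, had the highest mean promoter level when the gene start was used. With any annotated start, Rbpj (96.7) stood above Notch2 (94.3). The Notch2 promoter region (chr3:98013155-98014276) ranked at 95.6 and 92.4 for Input, 97.4 and 96.7 for Myc and 91.1 and 92.4 for PCM1. Myc was highest under each alternative run, while Input and PCM1 overlapped in the full lists. The Notch2 intron region with the highest floor, 12.6 kb into the gene (chr3:98025903-98026615), ranked at 93.15 and 89.4 for Input, 89.7 and 87.0 for Myc and 93.25 and 95.0 for PCM1. PCM1 was highest at this Notch2 region by a margin under 1 point, but not when ranked by fold enrichment. Another pattern at Notch2 was found at a coding exon 59.2 kb into the gene (chr3:98072518-98072953), chosen after its values were seen, with ranks of 79.9 and 70.5 for Input, 46.8 and 42.4 for Myc and 78.2 and 75.5 for PCM1. Myc lay below the other 4 libraries under each alternative run, while Input and PCM1 overlapped in the full lists and not at equal numbers of peaks, where both PCM1 libraries (76.0 and 73.5) ranked above Input (65.0 and 70.5). An intron region 27.5 kb into Notch2 (chr3:98040863-98041210) ranked at 67.4 and 56.1 for Input, 33.2 and 0 for Myc and 0 and 0 for PCM1, so that Input was highest and PCM1 had no peak. Another, 91.7 kb in (chr3:98105056-98105454), ranked at 31.8 and 16.0 for Input, 0 and 43.6 for Myc and 0 and 0 for PCM1, which did not hold with an equal number of peaks. The coding gene start nearest to it was that of Adam30. In an intron 33.0 kb into Notch2 (chr3:98046279-98046805), chosen after its values were seen, ranks were 75.3 and 52.8 for Input, 64.9 and 49.1 for Myc and 45.3 and 41.1 for PCM1. PCM1 was lowest there, except with an equal number of peaks per library.

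Rbpj encodes the DNA-binding protein through which the receptors act in the nucleus. The annotated gene start is that of the long Rbpj-210 transcript, and the region within 1 kb of it (chr5:53466452-53466704) ranked at 31.98 and 0 for Input, 0 and 17.9 for Myc and 0 and 0 for PCM1. The strong Rbpj region lay 124.2 kb further on, at the starts of the transcripts Rbpj-201, Rbpj-203 and Rbpj-208 (chr5:53588923-53590826), with ranks of 97.5 and 95.1 for Input, 97.0 and 96.9 for Myc and 96.1 and 97.5 for PCM1. The peak within 250 bp of these starts ranked lower in Input replicate 2 (93.3) and in Myc (96.7 and 96.6). No region of the other 8 genes had so high a floor over the 6 libraries as this merged region (95.1), and the groups overlapped. That place was lost by fold enrichment, where its floor was 81.0. The Notch2 promoter (88.0) and the strongest Notch1 region (86.6) were among the regions with a higher floor. The low Rbpj promoter level in the order of genes was thus a property of the start used: with any annotated start, the mean was 96.7 ± 0.935 (SD, n = 6). Between these starts, an Rbpj intron region at 57.1 kb (chr5:53523007-53523506), chosen after its values were seen, ranked at 85.8 and 77.6 for Input, 85.7 and 87.9 for Myc and 71.6 and 63.2 for PCM1. PCM1 was lowest under each alternative run, and Input and Myc overlapped in the full lists.

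Regions seen in Myc and missing from PCM1 were found at 2 places of Rbpj. The intron region at 63.9 kb (chr5:53529878-53530235) ranked at 35.9 and 0 for Input, 52.7 and 51.5 for Myc and 0 and 0 for PCM1. Downstream of Rbpj, a region (chr5:53657969-53658243) ranked at 52.3 and 0 for Input, 44.1 and 47.1 for Myc and 0 and 0 for PCM1. The shallow Input library lacked the peak in both cases and the deep one had it. By gene records, the coding gene start nearest to the downstream region was that of Cckar. Rbpj also held the 1 region with a peak in both PCM1 libraries and in neither Input library, in an intron at 48.9 kb (chr5:53514915-53515481), where ranks were 0 and 41.3 in Myc and 17.6 and 12.01 in PCM1. That Rbpj pattern was lost when a peak had to cover 50% of the merged region.

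**Figure D2:**
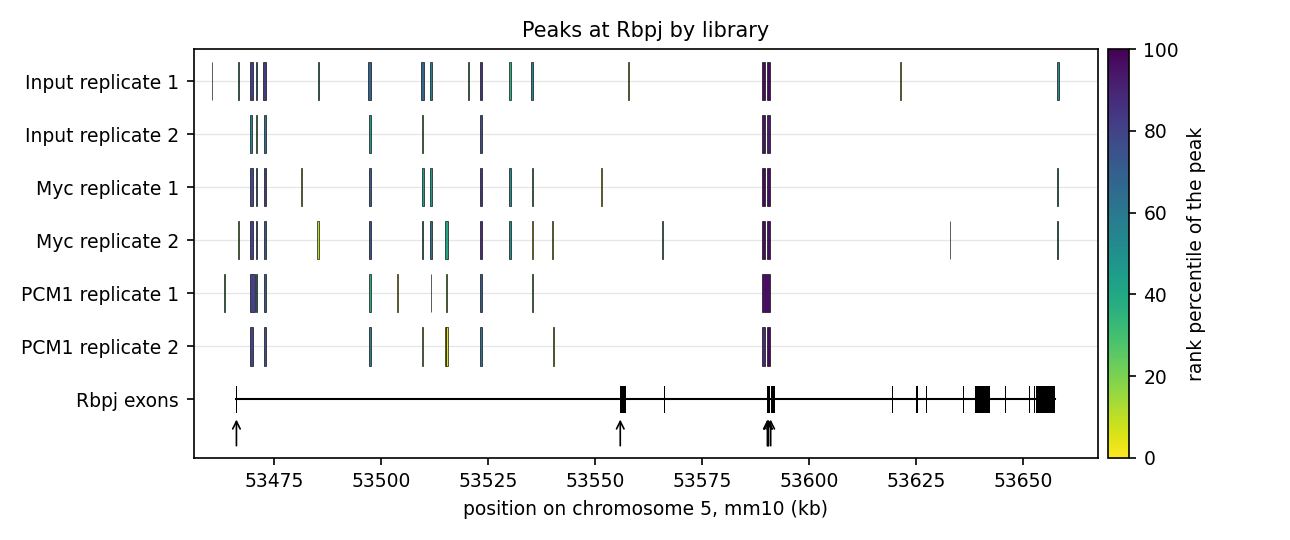
Peaks at Rbpj by position on mouse chromosome 5 in mm10 (horizontal axis, kb), with 1 line per library, each peak a box coloured by its rank percentile (0 to 100), and below them the Rbpj exons with arrows at the starts of coding transcripts. The peaks at the starts of Rbpj-201, Rbpj-203 and Rbpj-208 are dark in all 6 libraries, while the region at the start of the gene record has a peak in 2 libraries.

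Hes1, a repressor of transcription and the classical Notch target, separated the 3 groups at its coding start. The stronger Hes1 promoter region, upstream of the gene record (chr16:30063446-30064514), ranked at 97.5 and 91.1 for Input, 92.8 and 95.1 for Myc and 90.8 and 94.1 for PCM1. It was high in all 6 libraries, and the groups overlapped. The second Hes1 region (chr16:30065047-30065453), in the promoter window and with its summit 74 bp from the start of the coding transcript Hes1-201, ranked at 82.8 and 75.9 for Input, 91.5 and 89.2 for Myc and 51.4 and 57.2 for PCM1. Both Myc libraries were above and both PCM1 libraries below all others, with no overlap between any of the groups. Of all regions near protein-coding genes, 10.7% had Myc above the rest and 10.4% had PCM1 below. The share with both was not computed. With equally long peak lists, the ranks of this Hes1 region were 70.0 and 75.9 for Input, 88.0 and 84.4 for Myc and 46.4 and 53.7 for PCM1, and by fold enrichment they were 24.2 and 15.2, 43.9 and 37.4, and 0.857 and 1.94. The order of the groups was kept under each alternative run. Fragment pileups at the Hes1 summit were 315 and 91 for Input, 221 and 190 for Myc and 55 and 58 for PCM1. Divided by the genome background of each library, these were 79.6 and 88.9, 153 and 132, and 56.4 and 64.2, in the same order of groups.

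A region at a coding exon of Hes1, 2.73 kb from the start of the gene record (chr16:30066790-30067298) and chosen after its values were seen, ranked at 73.3 and 41.3 for Input, 67.3 and 58.5 for Myc and 0 and 30.0 for PCM1. PCM1 was lowest under each alternative run. By fold enrichment the margin was narrow (4.47 and 0.1765 for Input, 0.734 and 0.287 for Myc, 0 and 0.112 for PCM1). The most evenly strong Hes1 region away from the promoter lay 7.24 kb upstream (chr16:30056921-30057373), at 90.8 and 83.5 for Input, 83.3 and 85.4 for Myc and 81.9 and 85.9 for PCM1. All 6 libraries were high there, and the groups overlapped.

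**Figure D3:**
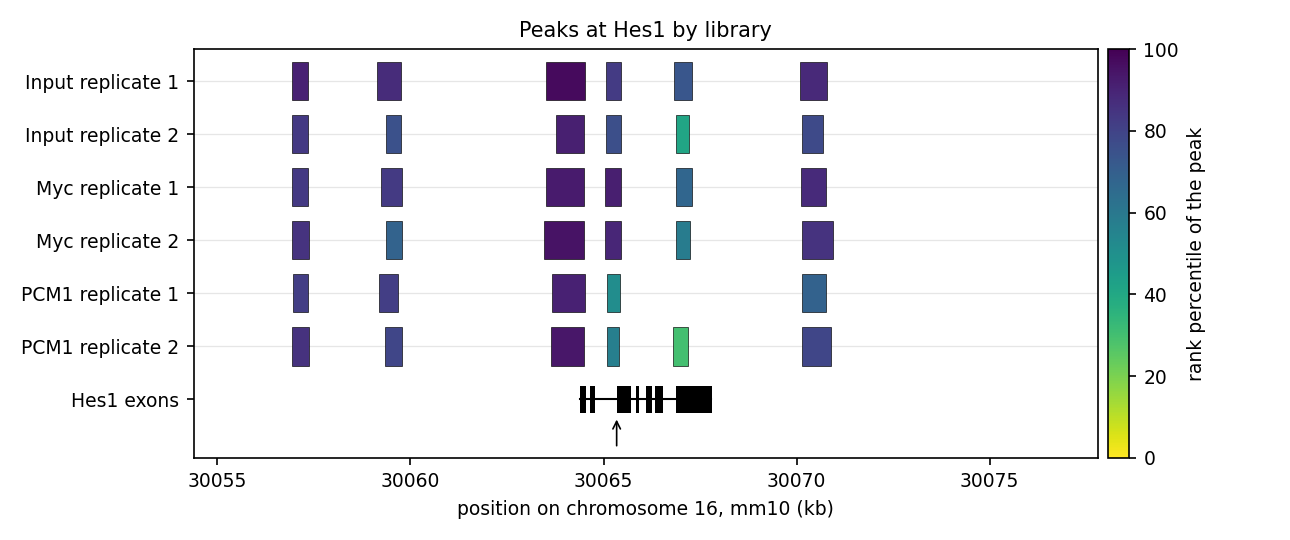
Peaks at Hes1 by position on mouse chromosome 16 in mm10 (horizontal axis, kb), with 1 line per library, each peak a box coloured by its rank percentile (0 to 100), and below them the Hes1 exons with an arrow at the start of the coding transcript Hes1-201. The region at the arrow ranks at 91.5 and 89.2 in Myc and at 51.4 and 57.2 in PCM1, beside an upstream region above 90 in all 6 libraries.

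Heyl encodes a Hey-type repressor that Notch3 drives in vascular smooth muscle. The Heyl promoter region (chr4:123233440-123234118) ranked at 83.5 and 32.1 for Input, 75.1 and 66.6 for Myc and 80.1 and 77.7 for PCM1. The Input libraries lay at both ends of this range, so 1 library, Input replicate 2, set the spread, and without it the Heyl mean over the libraries was 76.6. The strongest Heyl region was in the untranslated part of an exon 13.8 kb from the start (chr4:123247038-123247577), at 95.3 and 92.3 for Input, 87.9 and 89.1 for Myc and 92.6 and 90.8 for PCM1. Myc was lowest there, but not when ranked by fold enrichment. A Heyl intron region 4.06 kb from the start (chr4:123237407-123238249), chosen after its values were seen, ranked at 75.8 and 57.5 for Input, 70.7 and 50.4 for Myc and 26.2 and 20.1 for PCM1. PCM1 was below the other 4 libraries under each alternative run. With an equal number of peaks it ranked at 18.5 and 13.5, against 28.6 in Myc replicate 2. A region downstream of Heyl (chr4:123254537-123255015), chosen in the same way, ranked at 70.0 and 29.2 for Input, 72.0 and 71.8 for Myc and 11.4 and 21.9 for PCM1. Again PCM1 was lowest, except where a peak had to cover 50% of the merged region, and the region lay outside the narrower window of 2 kb around the gene. In contrast, the region at 15.8 kb (chr4:123249060-123249669), also chosen after its values were seen, ranked at 86.1 and 79.6 for Input, 83.1 and 76.3 for Myc and 88.4 and 87.2 for PCM1. PCM1 was highest at this region under each alternative run, opposite to the Heyl intron region at 4.06 kb and the region downstream. For this region and the downstream one, the nearest coding gene start was that of Pabpc4, not Heyl. Which gene these regions act on was not tested.

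Nrarp encodes a small ankyrin-repeat protein that dampens Notch signalling. The Nrarp promoter region (chr2:25180319-25181229) ranked at 93.9 and 87.8 for Input, 94.4 and 92.9 for Myc and 92.7 and 91.5 for PCM1. Apart from the lower Input replicate 2, the libraries differed little, and the groups overlapped. In an untranslated exon of Nrarp, 0.91 kb from the start (chr2:25181578-25181944), a weak region ranked at 29.6 and 0 for Input, 12.4 and 48.6 for Myc and 0 and 0 for PCM1. Its absence from PCM1 beside a peak in both Myc libraries did not hold with an equal number of peaks. The Nrarp region shared by all libraries away from the promoter lay downstream (chr2:25185532-25186660), at 60.1 and 29.3 for Input, 67.7 and 60.8 for Myc and 66.1 and 40.4 for PCM1, with the groups overlapping.

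Presence and absence separated few of the 117 Notch regions. A peak in both Myc libraries and in no PCM1 library was found at 6 regions, against 7.71% of the regions near protein-coding genes. These 6 lay at Jag1, Jag2, Notch1, Nrarp and, for 2 of them, Rbpj. A peak in both PCM1 libraries and in no Myc library was found at 0, against 1.23%. Both Input libraries and no PCM1 library had a peak at 5 regions, against 4.27%, and both PCM1 libraries and no Input library at 1, against 0.525%. For Input with Myc, which leaves the PCM1 libraries aside, 1 region had a peak in both Input libraries and no Myc library, against 1.99%, and 0 the reverse, against 2.06%. Input alone had 1 region, at Jag1, against 1.08% (0 regions at equal numbers of peaks), and Input with Myc but not PCM1 had 1, at Notch1, against 2.08%. These counts were near the background or rested on at most 1 region.

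With equally long peak lists (92 Notch regions), a peak in both PCM1 libraries and in no Myc library was found at 7 regions, against 3.81% of regions near protein-coding genes, and the reverse at 4, against 4.85%. Both Input libraries and no PCM1 library had a peak at 1 region, against 3.28%, and the reverse was seen at 2, against 2.46%. Both Input libraries and no Myc library had a peak at 7 regions, against 3.22%, and the reverse was seen at 3, against 2.86%. In the background, too, the share of PCM1 without Myc was higher with these lists than with the full ones, and that of Myc without PCM1 lower.

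The counts from the full lists were small enough for single libraries to decide them. Shares over all regions near protein-coding genes were not computed without a library, so the counts that follow have no background beside them. Regions in Myc and not in PCM1 numbered 19 without Myc replicate 1, 14 without Myc replicate 2, 12 without PCM1 replicate 1 and 13 without PCM1 replicate 2. Regions in Input and not in PCM1 numbered 28 without Input replicate 2, when the deepest library stood alone for its group, 10 without PCM1 replicate 1 and 12 without PCM1 replicate 2, while without Input replicate 1 there were 6. Regions in PCM1 and not in Input numbered 6 without Input replicate 1, 2 without PCM1 replicate 1 and 6 without PCM1 replicate 2. Those in PCM1 and not in Myc numbered 2 without Myc replicate 1, 3 without Myc replicate 2, 1 without PCM1 replicate 1 and 4 without PCM1 replicate 2. Between Input and Myc, the regions in Input alone of the pair numbered 2 without Input replicate 1, 13 without Input replicate 2, 4 without Myc replicate 1 and 7 without Myc replicate 2. The regions in Myc alone of the pair numbered 13 without Input replicate 1, 8 without Myc replicate 1 and 6 without Myc replicate 2.

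Ranks were compared in the same way, each count beside its share over all regions near protein-coding genes. No test was made between groups, since 2 libraries against 4 allow no one-sided exact p below 0.0667. Both PCM1 libraries ranked below the other 4 at 14 of the 117 regions, against 10.4% of regions near protein-coding genes, and above them at 5, against 2.01%. Both Myc libraries ranked above the other 4 at 11 regions, against 10.7%, and below them at 6, against 3.24%. Both Input libraries ranked above the other 4 at 7 regions, against 4.81%, and below them at 0, against 0.623%. The 14 regions low in PCM1 included the promoters of Dll4 and Jag1, the Hes1-201 start, 3 Notch2 introns and regions of Heyl, Notch1 and Rbpj. The 5 regions high in PCM1 lay at Notch1 (2 regions), Notch2, Jag2 and Heyl.

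The split between high and low depended on the number of peaks per library. With the 75336 strongest peaks of each library, an alternative chosen after seeing the data, the windows held 92 regions. PCM1 then ranked above the rest at 15 of them (against 11.2% of regions near protein-coding genes) and below at 11 (against 9.52%). Myc ranked above at 12 (against 12.9%) and below at 13 (against 10%), and Input above at 6 (against 6.24%) and below at 5 (against 3.64%). Of the regions first counted, 9 of the 14 low in PCM1, 5 of the 5 high in PCM1, 10 of the 11 high in Myc, 6 of the 6 low in Myc and 3 of the 7 high in Input kept their position. When ranked by fold enrichment, 12 of the 14 low in PCM1, 2 of the 5 high in PCM1, 9 of the 11 high in Myc, 5 of the 6 low in Myc and 6 of the 7 high in Input kept it. The same turn in PCM1, from more low than high ranks in the full lists to more high than low, was seen over all regions near protein-coding genes, and is not a result about the Notch genes.

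Single libraries moved these counts as well. No share over all regions was computed without a library, so the counts below are not a result about the Notch genes. Without Input replicate 2, Input ranked above the rest at 58 regions, Myc below at 15 and PCM1 below at 30. Without Input replicate 1, Input ranked below at 18 regions, Myc above at 28 and PCM1 above at 11. Without Myc replicate 1, Myc ranked above at 34 regions and below at 10, and Input below at 1, and without Myc replicate 2, Myc ranked above at 21. Without PCM1 replicate 1, PCM1 ranked above at 8 regions and below at 23. Without PCM1 replicate 2, PCM1 ranked above at 11 regions and below at 23, and Input below at 1.

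**Figure D4:**
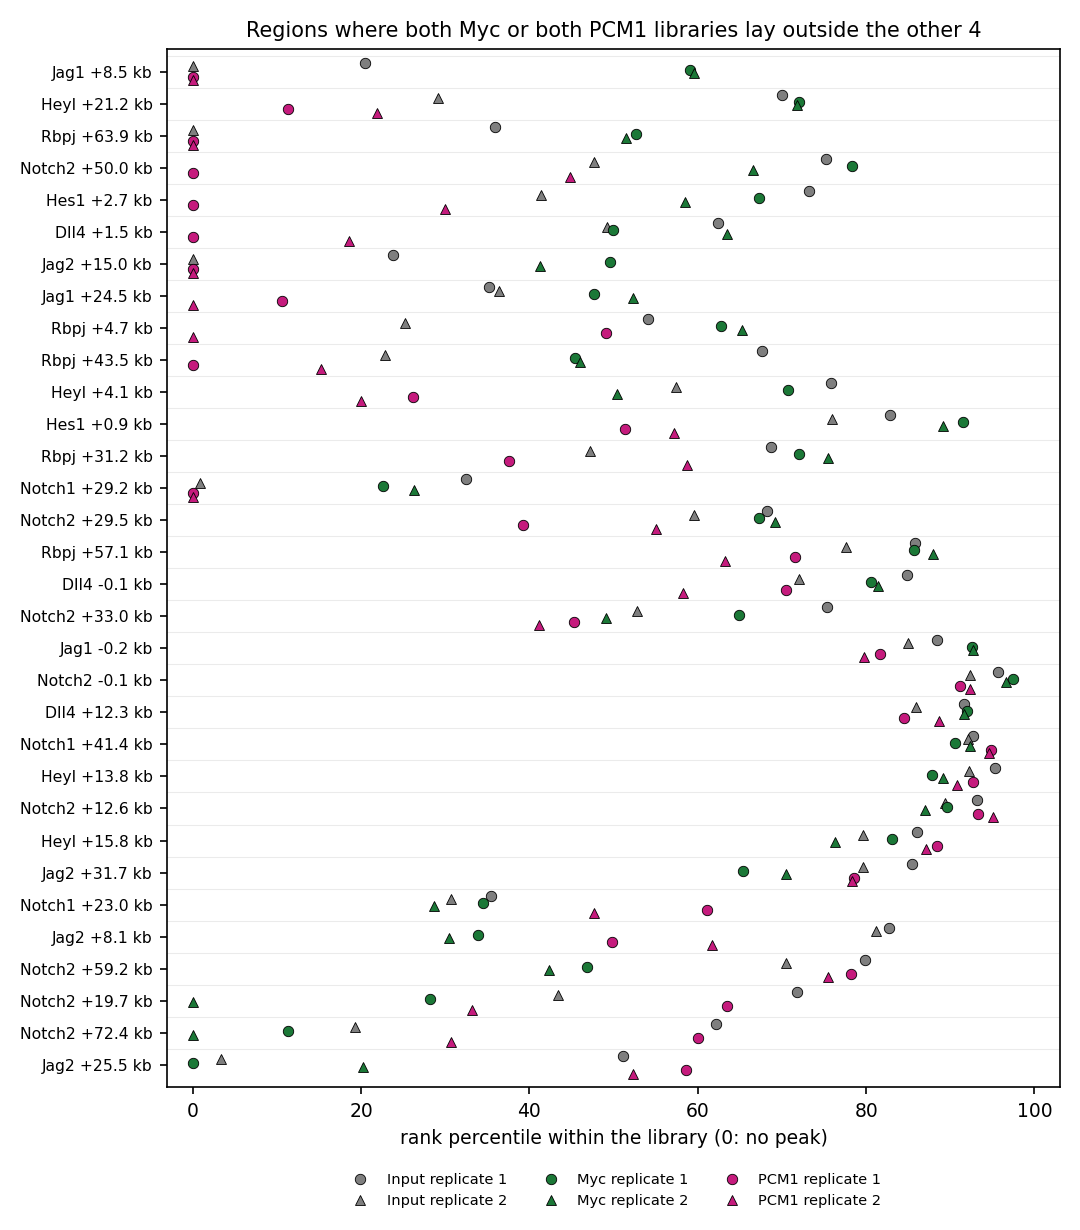
Rank percentile within the library (horizontal axis, 0 to 100, with 0 for no peak) at the Notch gene regions where both Myc or both PCM1 libraries lay outside the other 4, with 1 line per region named by gene and distance from the start, colours for groups, and circles and triangles for replicates 1 and 2. The Hes1 region at 0.88 kb has Myc highest and PCM1 lowest, and the Jag2 region at 8.06 kb has Input highest and Myc lowest.

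Marker genes of the cell types of the heart were read in the same libraries, whose nuclei had all passed the cushion meant to leave cardiomyocyte nuclei. Endothelial, fibroblast and epicardial sums were higher in both Myc than in both PCM1 libraries, while the Input libraries lay far apart. Smooth muscle and pericyte sums were too, by a narrow margin. Cardiomyocyte sums ran the other way, lower in both Myc than in both PCM1 libraries, and immune sums overlapped. None of these differences was tested. For 8 cardiomyocyte markers, 7 of which had a promoter peak in all 6 libraries while Tnni3 was at 0 in each, summed percentiles were 666 and 637 for Input, 596 and 628 for Myc and 642 and 638 for PCM1. The cardiomyocyte marker with the highest promoter percentile was Myh6 in Input and PCM1 and Tnnt2 in Myc. For 8 endothelial markers, 6 with a peak in all libraries and Tie1 highest, the sums were 484 and 300 for Input, 433 and 477 for Myc and 307 and 375 for PCM1. Fibroblast markers, 5 of 8 with a peak in all libraries and Col1a1 highest, summed to 520 and 335 for Input, 487 and 535 for Myc and 322 and 269 for PCM1. These endothelial and fibroblast sums were higher in Myc than in PCM1, as was the median promoter percentile of all protein-coding genes (74.8 and 74.0 against 57.4 and 55.9). The smooth muscle and pericyte markers, 7 of 8 with a peak in all libraries and Mylk highest, summed to 631 and 453 for Input, 514 and 591 for Myc and 512 and 442 for PCM1. Epicardial markers, 5 of 8 in all libraries, Msln at 0 and Tbx18 highest, summed to 396 and 302 for Input, 408 and 395 for Myc and 297 and 254 for PCM1. Immune markers, 6 of 8 at 0 in every library and Cd14 highest, summed to 70.4 and 20.3, 19.2 and 48.9, and 22.4 and 31.6. The part of these cell types, and of depth, in the Notch gene ranks was not tested.

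Among 27 other genes of the pathway, 22 had a promoter peak in all 6 libraries, against 56.1% of protein-coding genes. Numb, an inhibitor of Notch, was the highest in each library. The values below are those of the 27 genes. Their median percentile was 88.7 and 77.7 for Input, 89.4 and 89.1 for Myc and 82.1 and 82.1 for PCM1. The PCM1 libraries were thus below Myc here as for the 9 genes and for all protein-coding genes. Maml3, a coactivator of the RBPJ complex, ranked at 84.3 and 75.8 for Input, 84.2 and 87.5 for Myc and 0 and 0 for PCM1. It was the single gene of the 27 with a strong promoter peak in 4 libraries and none in PCM1. The share of protein-coding genes with this pattern was not computed. Fewer of them had a promoter peak in PCM1 (60.2% and 59.9%) than in Myc (63.7% and 63.5%). Dll3, a Delta-like protein that does not activate the receptors, ranked at 70.4 and 0 for Input, 62.3 and 69.6 for Myc and 0 and 41.5 for PCM1. Dtx1 had a peak in Myc replicate 2 (10.3), Psen2 one in Myc replicate 1 (0.151), and the target gene Hes5 had none.

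Over all 6 libraries, Heyl had the widest range of group means of the promoter percentile (21.1 points). That place was lost without Input replicate 2, when the range was 12.6 points for Heyl, 20.4 for Dll4 and 31.98 for Rbpj, and without PCM1 replicate 1, when it was 19.9 for Heyl and 22.8 for Dll4. Without Input replicate 1 the Heyl range was 46.8 points. The 5 protein-coding genes nearest to Heyl in promoter percentile, by Euclidean distance over the 6 libraries, were Ly6g6d and Ly6g6e (7.92 each, the same peak), Tuba8 (12.9), Tmem253 (13.1) and Mfsd4a (14.6).

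The DNA of the regions was searched on both strands for short words that transcription factors are known to bind, in the 300 bases around each summit. The RBPJ word TGGGAA was in 49 of the 117 Notch regions (41.9%), against 28.9% of the 169881 regions of the genome and 25.6% of all promoters in the RefSeq table. Its longer form GTGGGAA, which contains the shorter one, was in 22 Notch regions (18.8%), against 7.30% of all regions and 6.38% of promoters. The TEAD word GGAATG was in 29.9% of Notch regions and 20.3% of all regions, and can overlap TGGGAA. For the ETS word CAGGAAG the shares were 22.2% and 18.0%, for the GATA word AGATAA 13.7% and 17.1%, and for the NKX2-5 word TNAAGTG 11.1% and 15.9%. The background of these words was all 169881 regions, also those far from genes. Shares over the 119327 regions near protein-coding genes, used above, were not computed for them. A head-to-head pair of RBPJ words (GTGNGAA, 15 to 17 bases, TTCNCAC) was in 16 of the 169881 regions (0.00942%), and the Hes1 region at the Hes1-201 start was the 1 Notch region among them. A match of letters is a description of the sequence, and its absence says nothing about the factor. RefSeq promoter entries (GRCm38.p6) were present for 7 of the 9 genes, 2 of them for Rbpj, and Hes1 and Heyl had no entry. Of these entries, those of Rbpj held TGGGAA words, while those of Notch1, Notch2, Dll4, Jag1, Jag2 and Nrarp held none. The Notch1 entry lies at the Notch1-201 start and not at the upstream one. Around region summits, TGGGAA was also found at the upstream Notch1 start, in the Heyl promoter region and in both Hes1 promoter regions. The Nrarp region at 0.91 kb held it too.

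The following sequences show the Rbpj promoter and intron regions of the ligand, receptor and effector genes. The Rbpj promoter lies in the region with the highest floor over the 6 libraries by q value, though not by fold enrichment. In the intron regions, chosen after their values were seen, both libraries of at least 1 group lay outside the other 4. They are examples, and at Notch2 other regions differed more between the groups. All are on the plus strand, and capitals mark the words of RBPJ, TEAD, ETS and NKX2-5 on either strand. The Dll4 intron region is chr2:119327125-119327424 in mm10, with an RBPJ word and an ETS word. The Jag1 intron region at 8.51 kb is chr2:137107980-137108279, with an RBPJ word. The Jag2 intron region at 8.06 kb is chr12:112921565-112921864, which overlaps an exon of a noncoding Jag2 transcript and holds 2 NKX2-5 words and a TEAD word. The Notch2 intron region at 33.0 kb is chr3:98046375-98046674, with an RBPJ word and an NKX2-5 word. The Rbpj intron region at 57.1 kb is chr5:53523126-53523425, where an RBPJ word and a TEAD word overlap. The Rbpj promoter is chr5:53590096-53590213 of the RefSeq entry in GRCm38.p6, up to the start of Rbpj-201, with a TEAD word and an RBPJ word.
Dll4 intron region: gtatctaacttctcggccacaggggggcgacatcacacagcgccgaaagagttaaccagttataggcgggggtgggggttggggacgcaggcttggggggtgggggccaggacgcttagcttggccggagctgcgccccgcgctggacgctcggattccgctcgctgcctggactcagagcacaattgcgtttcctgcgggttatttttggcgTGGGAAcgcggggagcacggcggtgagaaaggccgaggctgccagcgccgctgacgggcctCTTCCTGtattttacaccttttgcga
Jag1 intron region: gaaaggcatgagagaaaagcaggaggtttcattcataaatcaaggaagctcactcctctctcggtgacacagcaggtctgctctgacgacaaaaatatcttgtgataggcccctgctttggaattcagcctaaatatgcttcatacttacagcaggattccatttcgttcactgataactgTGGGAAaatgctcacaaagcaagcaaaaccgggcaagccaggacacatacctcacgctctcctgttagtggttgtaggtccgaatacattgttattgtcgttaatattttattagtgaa
Jag2 intron region: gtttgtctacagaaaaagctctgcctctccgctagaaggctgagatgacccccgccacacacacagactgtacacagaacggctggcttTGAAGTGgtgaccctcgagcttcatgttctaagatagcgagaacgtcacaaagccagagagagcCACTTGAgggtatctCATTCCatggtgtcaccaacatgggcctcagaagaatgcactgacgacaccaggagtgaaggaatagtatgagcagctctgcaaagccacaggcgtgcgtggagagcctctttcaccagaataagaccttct
Notch2 intron region: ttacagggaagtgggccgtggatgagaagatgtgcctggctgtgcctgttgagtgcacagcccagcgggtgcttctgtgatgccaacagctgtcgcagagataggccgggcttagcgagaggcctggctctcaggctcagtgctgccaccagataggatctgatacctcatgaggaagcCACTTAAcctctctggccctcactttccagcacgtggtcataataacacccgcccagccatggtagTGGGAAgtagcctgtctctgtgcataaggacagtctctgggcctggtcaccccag
Rbpj intron region: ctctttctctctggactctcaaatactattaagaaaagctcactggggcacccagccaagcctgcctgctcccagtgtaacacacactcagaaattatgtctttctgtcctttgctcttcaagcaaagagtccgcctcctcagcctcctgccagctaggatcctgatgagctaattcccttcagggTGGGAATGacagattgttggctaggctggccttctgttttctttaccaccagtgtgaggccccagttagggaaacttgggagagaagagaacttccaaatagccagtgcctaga
Rbpj promoter: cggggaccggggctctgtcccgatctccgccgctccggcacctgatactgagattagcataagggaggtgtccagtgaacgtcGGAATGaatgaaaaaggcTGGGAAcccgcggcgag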

How the data were processed

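The submitters' processing notes name FastQC 0.11.5, Bowtie2 2.3.3.1, Picard 2.2.1, bedtools 2.7.1, MACS2 2.1.0.20160309 and HOMER, with the mm10 genome. The deposited peak lists give, as the authors made them with MACS2, a fold enrichment (a ratio of pileup to local background) and −log10 p and −log10 q values at each summit, at q under 0.05. The summit pileup and the genome background were solved from these values. Peaks overlapping by at least 1 bp were merged into regions, and a region took each library's strongest peak. Peaks were ranked within a library by −log10 q. The pair test is a two-sided exact permutation test with Benjamini-Hochberg adjustment. Python 3.11.15, numpy 2.4.6, scipy 1.17.1, pandas 2.3.3 and matplotlib 3.10.9 were used, and the steps were tested on simulated data. The members and lists were chosen with earlier results of these data known. Named regions were each promoter, the region of each gene away from the promoter with the highest rank in its weakest library, and regions present in both libraries of 1 or 2 groups and absent from the others. Other named regions were chosen after their values were seen. Alternatives were q at most 0.01, equal numbers of peaks, ranks by fold enrichment, any transcript start, 2 kb windows, 50% coverage and leave-one-out.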

Additional observations from a re-analysis of the deposited data

How the results depend on the processing

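The paper states that part of the cushion-purified nuclei served as input and the rest went to the pull-downs, so libraries could share a preparation. No paired analysis was possible between groups because the labels do not say which libraries came from the same preparation of nuclei. No test compared groups. With the strongest peaks of each library, as many as the smallest list, regions in both PCM1 and no Myc library went from 0 to 7 (3.81% of all regions near protein-coding genes), both Input and no PCM1 from 5 to 1 (3.28%), both Input and no Myc from 1 to 7 (3.22%), both PCM1 and no Input from 1 to 2 (2.46%), and both Myc and no Input from 0 to 3 (2.86%). Regions where Input ranked below the rest went from 0 to 5, Myc below from 6 to 13, and PCM1 above from 5 to 15. With at least 50% of the region covered, PCM1 without Myc was 1, Input without PCM1 9, and PCM1 without Input 0. For counts with 50% coverage, 2 kb windows or fold enrichment, no share over all regions was computed. Ranked by fold enrichment, the median promoter percentile of the 9 genes was 65.2 in place of 85.1, Nrarp minus Notch1 was −6.96 and Jag1 minus Dll4 −3.16. With any annotated transcript start, Jag2 minus Rbpj was −29.9. The cause was not tested. The other 59 values that answer a comparison, with all libraries, were within 1.5 times the count first given or, for the median percentile, within 1 SD. Within that tolerance the regions fell from 117 to 92 (equal numbers of peaks) and 94 (2 kb windows), those in all libraries from 45 to 33 (50% covered), and Myc below rose from 6 to 9 (fold enrichment). Leave-one-out gave 106 to 117 regions, 45 to 52 in all libraries, and 8 to 8 genes with a promoter peak in all, with a median percentile of 84.2 to 86.2. Presence counts ranged from 6 to 19 (Myc, no PCM1), 0 to 4 (PCM1, no Myc), 5 to 28 (Input, no PCM1), 1 to 13 (Input, no Myc), 1 to 6 (PCM1, no Input) and 0 to 13 (Myc, no Input). Rank counts ranged from 7 to 58 (Input above), 0 to 18 (Input below), 11 to 34 (Myc above), 6 to 15 (Myc below), 5 to 11 (PCM1 above) and 14 to 30 (PCM1 below). For these leave-one-out counts no share over all regions was computed. The pair test was void under leave-one-out, since 5 libraries cannot give a p under 0.05. The alternatives for rank counts, and the counts of Input without Myc, Myc without Input and PCM1 without Input, were chosen after seeing the data. Peak lists hold no values below the threshold, so an absent peak in the shallow Input replicate 2 or in the PCM1 libraries is not a measured 0. Ranks depend on the length of each peak list, and they do not remove differences in the share of nuclei of each cell type.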
